A study of Mus musculus with 12 samples.

Results

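The 10 genes described here are repressors and output factors of the core circadian clock: the Period genes Per1, Per2 and Per3, the cryptochromes Cry1 and Cry2, the repressor Ciart (also called Chrono), the nuclear receptors Nr1d1 and Nr1d2 (REV-ERB alpha and beta), and the bZIP factors Dbp and Tef. They were taken by name from the 48709 gene identifiers counted, and all 10 matched 1 identifier each. The 10 genes and all lists of other genes were chosen with earlier results of these data known. Counts of them beside the share of all genes are therefore descriptive and no independent test of the set. RNA came from C57BL/6 mouse hypothalamus of embryonic day 18, whose dissociated cells were exposed to a reporter virus at a multiplicity of infection of 10 and cultured as neurospheres, which are clusters of neural cells in suspension. On the next day they received medium with 10 ng/ml of bFGF, a growth factor, and a week of culture ended in dissociation and sorting. The 4 groups held 3 libraries each. The mCherry-positive and mCherry-negative cells came from cultures exposed to an adeno-associated virus with a reporter for hypocretin (Hcrt) cells. Of the RNA of these cells, 0.8 ng was used. The EGFP-positive and EGFP-negative cells came from cultures exposed to a lentivirus with a reporter for melanin-concentrating hormone (MCH, gene Pmch) cells, and 2 ng of RNA was used. Whether the reporter-negative cells carried virus was not tested. All 4 groups thus shared strain, age, culture and growth factor, while virus, reporter and RNA input differed between both sorts and cannot be told apart there.

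Libraries held 16.3 to 32.9 M reads (M, megareads) in genes. Every clock gene passed the filter on low counts in every comparison, and the lowest count of any of them in a library was 139, for Per2 in mCherry-negative replicate 3. The reporter genes bear on what was sorted. Pmch had 17.2, 19.1 and 18.9 CPM in EGFP-positive libraries, against 3.93, 5.02 and 4.81 CPM in EGFP-negative libraries. Hcrt had 3 to 14 reads per mCherry-positive library, against 1 to 5 reads per mCherry-negative library, so the mCherry-positive cells could not be identified as Hcrt neurons by their defining transcript. CPM are counts scaled to library size with TMM factors over all 12 libraries. The libraries are bulk RNA, in which fewer cells of a type and less RNA per cell cannot be told apart. Whether the 3 replicates of a group were separate cultures is not stated in the labels, and the p-values cover the spread between these samples only, which may be technical. The labels give no clock time of collection, so whether the groups differed in circadian phase was not tested.

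In mouse cells the clock is a feedback loop of transcription. The activators CLOCK and BMAL1 (gene Arntl) bind E-boxes and switch on the Per, Cry, Nr1d and Dbp genes, among many others. PER and CRY proteins return to the nucleus and repress CLOCK and BMAL1, the REV-ERB receptors repress Arntl in competition with the ROR receptors, and DBP and TEF carry the rhythm to genes with D-boxes. The hypothalamus holds the central pacemaker, the suprachiasmatic nucleus, and the clock runs in most other cell types as well, astrocytes included.

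Nr1d1, Dbp and Cry2 rose in EGFP-positive cells relative to EGFP-negative cells. That is 3 of 10, where 8.99% of the 16326 genes tested were called higher and 16.1% were called in either direction (adjusted p under 0.05 by edgeR's quasi-likelihood test over all genes). None of the 10 fell, where 7.07% of all genes were called lower. In mCherry-positive cells relative to mCherry-negative cells 0 of the 10 were called, where 1.20% of 17369 genes were called in either direction. At an unadjusted p under 0.05 there were 4 of 10 (Nr1d1, Per3, Nr1d2 and Dbp), where 18.6% of all genes were. DESeq2 called 2 of 10 (Nr1d1 and Per3), where it called 8.50% of all genes, and limma-voom called 0, where it called 1.42%. All 10 fitted changes were above 0 in the mCherry sort, as were 51.4% of all genes tested, with a median log2 fold change of 0.58 against 0.02 over all genes. Of the EGFP values 9 of 10 were above 0, as were 49.2% of all genes tested, with a median of 0.45 against -0.01 over all genes.

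The mean of both reporter effects was added after these values were seen, in 1 fit of all 12 libraries. By that measure Nr1d1, Per3 and Dbp rose in reporter-positive cells, 3 of 10, where 8.61% of 18063 genes were called higher and 14.9% in either direction. The mean log2 fold change was 0.76 ± 0.12 (SE) for Nr1d1 (adjusted p = 0.00125), 0.64 ± 0.12 for Per3 (adjusted p = 0.00385) and 0.59 ± 0.14 for Dbp (adjusted p = 0.0126). These 3 calls were kept in each of the 12 fits that left out 1 library and under the 5 other settings tried. Nr1d2, at 0.87 ± 0.28 (adjusted p = 0.0509), and Cry2, at 0.31 ± 0.10 (adjusted p = 0.0511), lay just outside the threshold. Nr1d2 passed it under each of the 5 other settings (adjusted p from 0.0033 to 0.0499) and Cry2 under 2 of 5, DESeq2 (0.0112) and DESeq2's size factors in edgeR (0.0472). When a library was left out, Cry2 passed it without EGFP-positive replicate 1 (adjusted p = 0.033). Nr1d2 did so without EGFP-positive replicate 1 (adjusted p = 0.0254), without mCherry-positive replicate 2 (0.0497) and without mCherry-negative replicate 2 (0.0303).

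**Figure D1:**
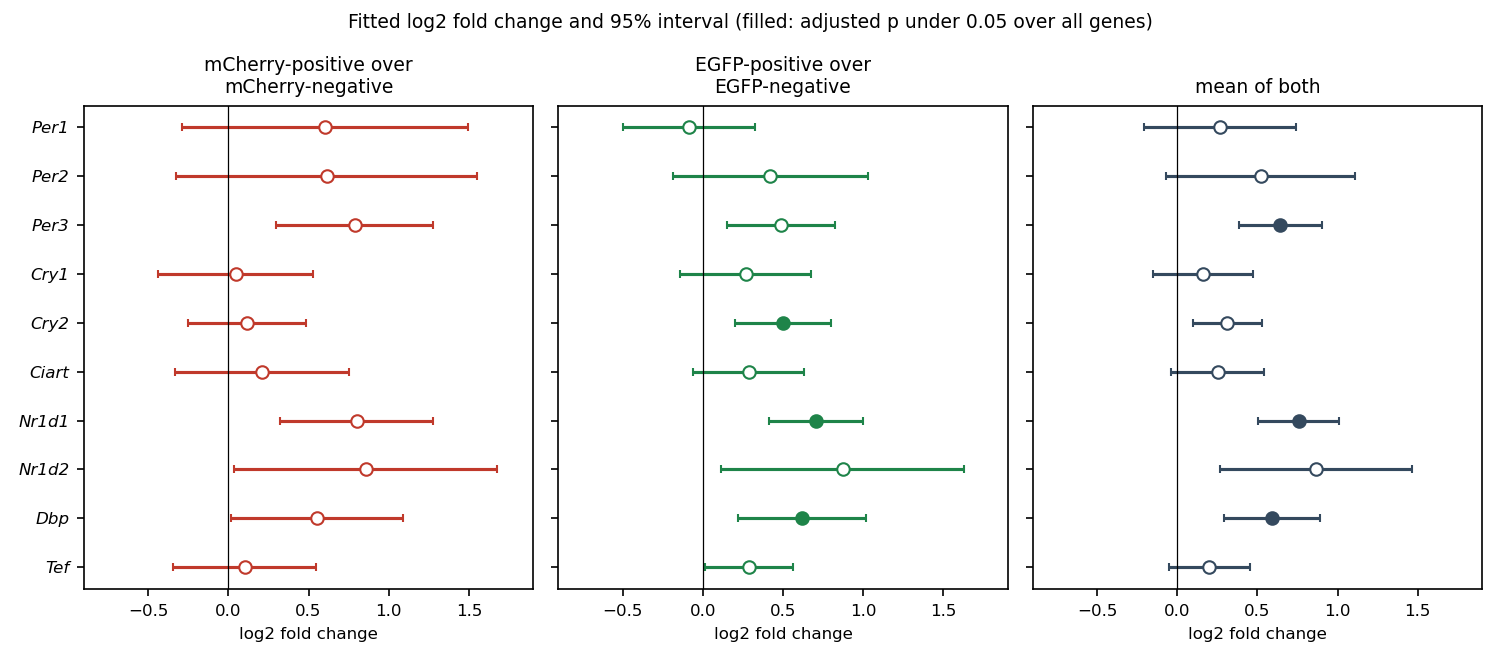
Fitted log2 fold change of the 10 clock genes (points) with its 95% interval (bars) for mCherry-positive over mCherry-negative cells, EGFP-positive over EGFP-negative cells and the mean of both; filled points have an adjusted p under 0.05 over all genes. All points but Per1 in the EGFP sort lie above 0, and the filled ones are Cry2, Nr1d1 and Dbp for EGFP and Per3, Nr1d1 and Dbp for the mean.

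Cell type and state genes differed between the same groups. Summed astrocyte markers (8 genes) stood at 9362 to 13528 CPM in mCherry-positive libraries, against 4724 to 8530 CPM in mCherry-negative libraries, with 1 of 8 called higher. For EGFP they stood at 16864 to 21333 CPM in positive libraries, against 8836 to 9117 CPM in negative libraries, with 7 of 8 called higher and 1 lower. Astrocyte markers were thus higher on the reporter-positive side of both sorts with no overlap of the sums.

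Ependymal markers (6 genes) summed to 109 to 127 CPM in EGFP-positive libraries, against 61.5 to 70.3 CPM in EGFP-negative libraries, with 5 of 6 called higher. For mCherry they were at 50.3 to 82.9 CPM in positive libraries, against 20.8 to 41.2 CPM in negative libraries, with 1 of 6 called. Oligodendrocyte markers (8 genes) were at 1771 to 1864 CPM in EGFP-positive libraries, against 4826 to 5127 CPM in EGFP-negative libraries, with 7 of 8 called lower. Their ranges in the mCherry sort overlapped (3790.3 to 5778 CPM in positive and 3864 to 4956 CPM in negative libraries, 0 of 8 called). All 8 neuron markers were detected in every group, with 5 of 8 called lower in EGFP-positive cells (815 to 1118 CPM, against 1192 to 1256 CPM in EGFP-negative cells) and 0 of 8 called in the mCherry sort (1028 to 1897 CPM in positive and 1435 to 1886 CPM in negative libraries).

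Genes of cell division (10 genes) summed to 261 to 401 CPM in mCherry-positive libraries, against 711 to 973 CPM in mCherry-negative libraries, with 6 of 10 called lower. For EGFP they were at 874 to 1025.5 CPM in positive libraries, against 1014 to 1062 CPM in negative libraries, with 1 of 10 called lower. Immediate early genes (12 genes) summed to 6118 to 6774 CPM in EGFP-positive libraries, against 5211 to 5406 CPM in EGFP-negative libraries, with 4 called higher and 1 lower. For mCherry they were at 4888 to 5277 CPM in positive libraries, against 5777 to 7231 CPM in negative libraries, with 0 called. Glucocorticoid-responsive genes (8 genes) summed to 1106.5 to 1489.5 CPM in EGFP-positive libraries, against 908 to 1029 CPM in EGFP-negative libraries, with 3 called higher and 3 lower, and none was called in the mCherry sort (763 to 891 CPM in positive and 644 to 825 CPM in negative libraries).

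Markers of the remaining cell types were low or uneven. Pituitary markers (7 genes) reached 2259.8 and 5097 CPM in mCherry-positive replicates 2 and 3 but 6.64 CPM in replicate 1, against 5.42 to 218 CPM in mCherry-negative libraries. They were at 38.7 to 67.0 CPM in EGFP-positive libraries, with Pou1f1 at 0, against 348 to 454 CPM in EGFP-negative libraries. Microglia markers (6 genes) reached 602 CPM in mCherry-positive replicate 1, against 24.97 to 149 CPM in mCherry-negative libraries, and were at 3.23 to 4.59 CPM in EGFP-positive libraries, against 26.8 to 43.0 CPM in EGFP-negative libraries. Mural and mesenchymal markers (7 genes) were at 28.9 to 169.9 CPM in mCherry-positive and 116 to 332.5 CPM in mCherry-negative libraries, and at 78.8 to 110.3 CPM in EGFP-positive and 309 to 340.4 CPM in EGFP-negative libraries. Their genes split for EGFP, with Acta2, Tagln and Pdgfrb called higher and Col1a1, Dcn, Col3a1 and Lum called lower. For EGFP 6 of 6 microglia markers and 3 of the 5 pituitary markers tested were called lower, and for mCherry none of these 3 lists had a call. Endothelial markers (5 genes) summed to at most 3.32 CPM in any library, with Tek at 0 in both reporter-positive groups, Cdh5 at 0 in EGFP-positive and Cldn5 at 0 in mCherry-negative libraries. The part of these cell type and state differences in the levels of the clock genes was not tested.

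**Figure D2:**
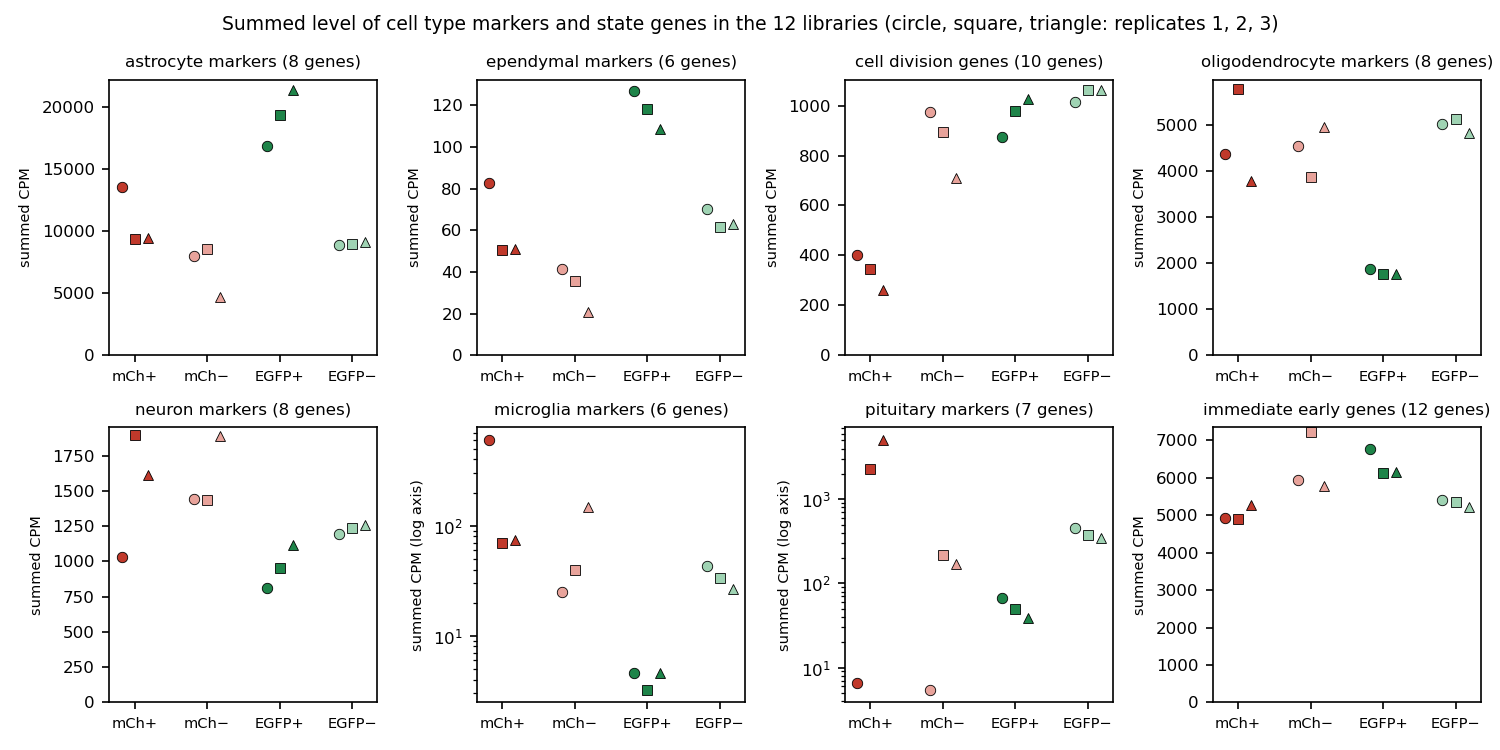
Summed CPM of 6 cell type marker lists and 2 state lists in each of the 12 libraries, by group; the panels of microglia and pituitary markers have a log axis and the others start at 0. Astrocyte sums are higher on the reporter-positive side of both sorts, cell division sums are lowest in mCherry-positive libraries (261 to 401 CPM), and pituitary sums are uneven among mCherry-positive libraries.

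The nuclear receptor Nr1d1 separated positive from negative libraries in both sorts. Nr1d1 (ENSMUSG00000020889, GRCm38 chr11:98767932-98775333, minus strand) encodes REV-ERB alpha, which represses Arntl. The 250 bases before its start in RefSeq's table (GRCm38.p6, chr11:98775378-98775627, minus strand) are shown because this gene was called in the EGFP sort and in the mean of both sorts; capitals mark 1 match to the E'-box CACGTT, read on the opposite strand, which begins 28 bases before the start.
Nr1d1: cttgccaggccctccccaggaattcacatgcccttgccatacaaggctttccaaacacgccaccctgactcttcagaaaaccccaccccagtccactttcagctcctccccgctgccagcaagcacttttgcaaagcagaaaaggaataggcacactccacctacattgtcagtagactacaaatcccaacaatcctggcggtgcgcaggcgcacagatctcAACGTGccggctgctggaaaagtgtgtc

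Nr1d1 stood at 35.3, 40.7 and 51.4 CPM in mCherry-positive libraries, against 26.03, 23.2 and 24.5 CPM in mCherry-negative libraries. In the EGFP sort it had 52.0, 51.7 and 58.3 CPM in positive libraries, against 35.3, 31.2 and 31.8 CPM in negative libraries. Positive and negative libraries did not overlap in either sort. The log2 fold change was 0.70 ± 0.13 (SE; adjusted p = 0.00707) in the EGFP sort and 0.80 ± 0.21 (adjusted p = 0.0992) in the mCherry sort. Without EGFP-negative replicate 2 the EGFP value was 0.67 and just missed the threshold (adjusted p = 0.0513); leaving out any other single EGFP library kept the call. In the mCherry sort DESeq2 and the fit of all 12 libraries called it (adjusted p = 0.0103 and 0.0106). Of the exonic bases of Nr1d1, 8.55% lie in exons of Thra on the opposite strand, and the strand setting of the counting is not given in the sources used here, so reads from those bases are uncertain.

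The levels of Nr1d1 put the 4 groups in the order EGFP-positive (54.0 ± 3.7 CPM, SD, n = 3), mCherry-positive (42.5 ± 8.2), EGFP-negative (32.7 ± 2.2) and mCherry-negative (24.6 ± 1.4). No library of a group overlapped the group next to it in that order, which held for Nr1d1 alone among the 10. The order was set from these same levels, and the share of all genes with such a separation was not counted. The lowest gap was between the mCherry-positive libraries, down to 35.34 CPM, and the EGFP-negative libraries, up to 35.25 CPM.

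Nr1d2 (ENSMUSG00000021775, chr14:18204054-18239127, minus strand) encodes REV-ERB beta, the paralog with the same targets. It had the largest fitted change of the 10 in both sorts, and its libraries were uneven within groups. In mCherry-positive libraries it stood at 75.03, 44.0 and 54.2 CPM, against 34.5, 46.0 and 15.5 CPM in mCherry-negative libraries. EGFP-positive libraries had 28.3, 51.1 and 69.5 CPM, against 17.01, 28.0 and 35.8 CPM in EGFP-negative libraries. The groups overlapped in both sorts, through mCherry-negative replicate 2 and through EGFP-positive replicate 1. Fitted log2 fold changes were 0.87 ± 0.34 (SE; adjusted p = 0.114) in the EGFP sort and 0.86 ± 0.37 (adjusted p = 0.251) in the mCherry sort. Without EGFP-positive replicate 1 the EGFP value was 1.16 (adjusted p = 0.00231). It was also called by DESeq2 (adjusted p = 0.0407) and with no filter on low counts (0.00895).

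**Figure D3:**
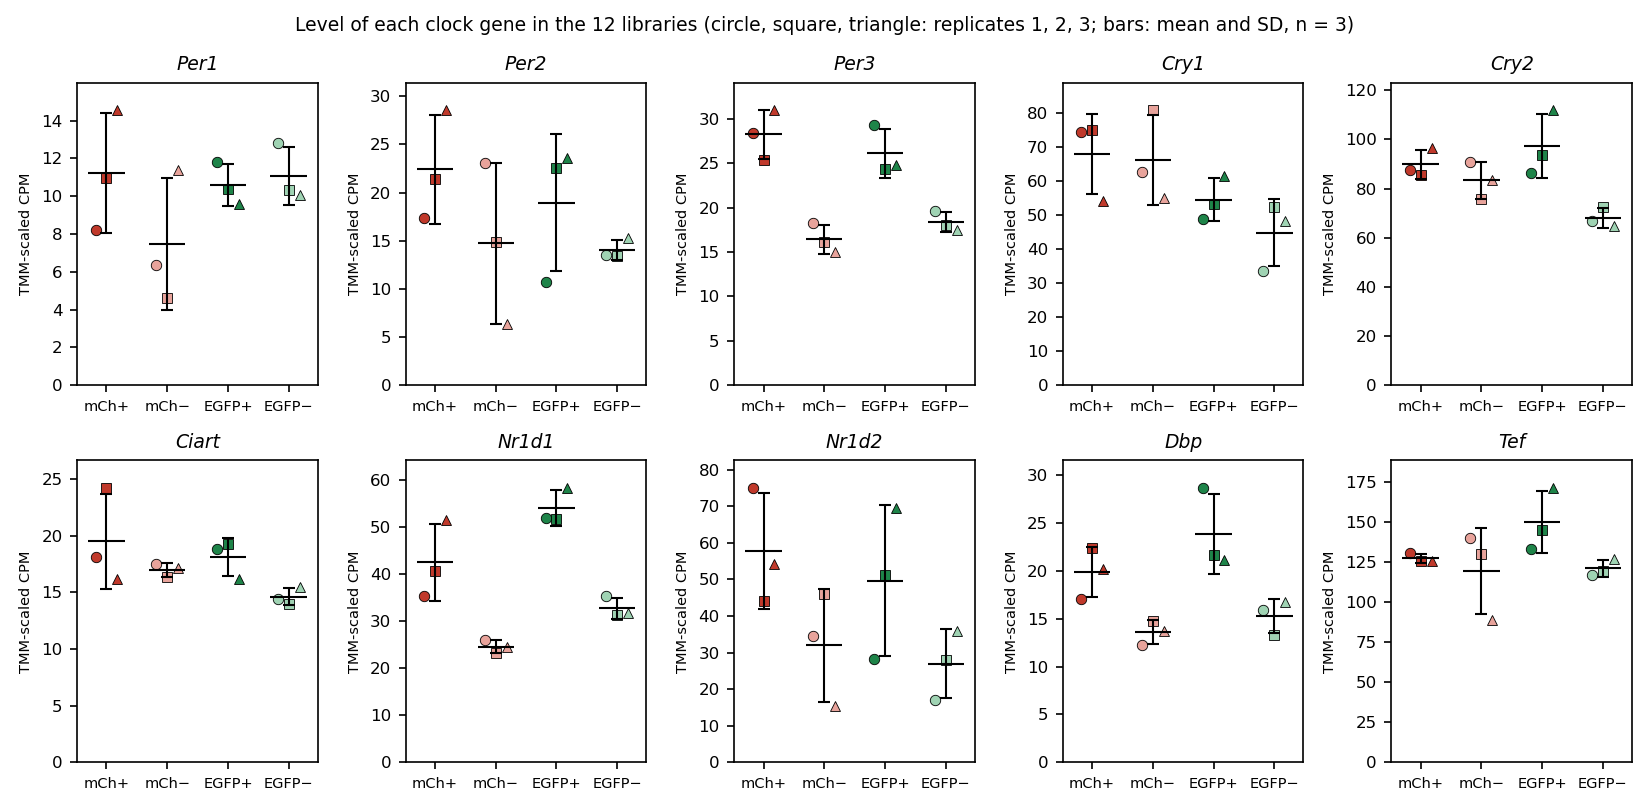
TMM-scaled CPM of the 10 clock genes in each library (circles, squares and triangles are replicates 1, 2 and 3), with the mean and SD of each group of 3; all axes start at 0. Nr1d1, Per3 and Dbp separate positive from negative libraries in both sorts, while Nr1d2 and Per2 spread widely within groups.

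The Period genes encode the proteins that, bound to cryptochromes, close the feedback loop. Of the 3, Per3 (ENSMUSG00000028957, chr4:151003652-151044665, minus strand) differed most evenly between positive and negative cells. Its 250 bases before the RefSeq start (GRCm38.p6, chr4:151044666-151044915, minus strand) are shown because they hold 2 matches to the D-box TTATGTAA, in capitals, the element that DBP and TEF bind. The matches begin 205 and 158 bases before the start.
Per3: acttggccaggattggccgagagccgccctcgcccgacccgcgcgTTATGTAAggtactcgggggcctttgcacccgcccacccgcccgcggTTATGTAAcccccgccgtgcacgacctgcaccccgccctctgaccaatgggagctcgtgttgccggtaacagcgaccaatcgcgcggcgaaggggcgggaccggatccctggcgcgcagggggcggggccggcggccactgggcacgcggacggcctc

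Per3 had 28.4, 25.3 and 30.9 CPM in mCherry-positive libraries, against 18.2, 16.1 and 15.02 CPM in mCherry-negative libraries. EGFP-positive libraries had 29.3, 24.3 and 24.7 CPM, against 19.6, 17.996 and 17.5 CPM in EGFP-negative libraries. All 6 positive libraries lay above all 6 negative ones, and the share of all genes with such a separation over both sorts was not counted. The log2 fold change was 0.79 ± 0.22 (SE) in the mCherry sort, where it was not called by edgeR (adjusted p = 0.107) but was called by DESeq2 (0.0126) and in the fit of all 12 libraries (0.0132). In the EGFP sort it was 0.49 ± 0.15, again outside the threshold (adjusted p = 0.0557), and was called by DESeq2 (0.0153) and without EGFP-positive replicate 1 (0.049).

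Per2 (ENSMUSG00000055866, chr1:91415982-91459324, minus strand), whose loss weakens rhythms in mice, was uneven between libraries. It stood at 17.3, 21.4 and 28.5 CPM in mCherry-positive libraries, against 23.0, 14.9 and 6.31 CPM in mCherry-negative libraries. The EGFP sort gave 10.7, 22.5 and 23.6 CPM in positive libraries, against 13.5, 13.4 and 15.3 CPM in negative libraries. The groups overlapped in both sorts, with a log2 fold change of 0.61 ± 0.42 (SE; adjusted p = 0.463) for mCherry and 0.42 ± 0.27 (adjusted p = 0.335) for EGFP. EGFP-positive replicate 1 was the lowest of its sort, and without it the EGFP value was 0.71 (adjusted p = 0.00378).

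Per1 (ENSMUSG00000020893, chr11:69095217-69109960, plus strand), the Period gene that also responds quickly to signals such as light and glucocorticoids, did not separate the groups. mCherry-positive libraries had 8.20, 10.9 and 14.5 CPM, against 6.35, 4.64 and 11.4 CPM in mCherry-negative libraries. EGFP-positive libraries had 11.8, 10.4 and 9.61 CPM, against 12.8, 10.3 and 10.0 CPM in EGFP-negative libraries. Its log2 fold change was 0.61 ± 0.40 (SE; adjusted p = 0.444) for mCherry and -0.09 ± 0.18 (adjusted p = 0.8) for EGFP, with a 95% interval of -0.49 to 0.32 in the EGFP sort. It was the only clock gene of the 10 with a value under 0 in a reporter comparison, and that sign turned without EGFP-negative replicate 1 (0.04).

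Cryptochromes are the stronger transcriptional repressors of the PER and CRY complex. Cry2 (ENSMUSG00000068742, chr2:92403646-92434043, minus strand) rose in EGFP-positive cells. Its 250 bases before the RefSeq start (GRCm38.p6, chr2:92434070-92434319, minus strand) hold 1 match to the E'-box, in capitals and read on the opposite strand, which begins 166 bases before the start.
Cry2: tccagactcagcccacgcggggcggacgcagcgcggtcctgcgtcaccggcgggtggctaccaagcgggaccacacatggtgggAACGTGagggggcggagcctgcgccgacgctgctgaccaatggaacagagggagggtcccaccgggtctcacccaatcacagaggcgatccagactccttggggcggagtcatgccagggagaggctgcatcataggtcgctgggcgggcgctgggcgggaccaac

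Cry2 had 86.4, 93.5 and 112 CPM in EGFP-positive libraries, against 66.8, 72.5 and 64.7 CPM in EGFP-negative libraries, with no overlap. The log2 fold change was 0.50 ± 0.13 (SE; adjusted p = 0.0327). The call was kept without EGFP-positive replicate 1 and lost without each of the other EGFP libraries: adjusted p was 0.101 and 0.0669 without EGFP-positive replicates 2 and 3, and 0.122, 0.0917 and 0.131 without EGFP-negative replicates 1, 2 and 3. In the fit of all 12 libraries it was also lost (adjusted p = 0.0554). mCherry-positive libraries had 87.5, 85.5 and 96.4 CPM, against 90.9, 75.9 and 83.5 CPM in mCherry-negative libraries, which overlapped (log2 fold change 0.12 ± 0.17, adjusted p = 0.745). The antisense transcript D930015M05Rik shares 4.67% of the exonic bases of Cry2.

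Cry1 (ENSMUSG00000020038, chr10:85131700-85185064, minus strand) was not called in either sort. It stood at 74.4, 75.04 and 54.2 CPM in mCherry-positive libraries, against 62.7, 80.7 and 54.9 CPM in mCherry-negative libraries. The EGFP-positive libraries had 48.9, 53.3 and 61.3 CPM, against 33.6, 52.4 and 48.2 CPM in EGFP-negative libraries. Groups overlapped in both sorts. Its log2 fold change was 0.05 ± 0.22 (SE; adjusted p = 0.932) in the mCherry sort, with a 95% interval of -0.44 to 0.53, and 0.27 ± 0.18 (adjusted p = 0.363) in the EGFP sort.

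Ciart (ENSMUSG00000038550, chr3:95878503-95882251, minus strand) encodes a repressor that binds BMAL1. Its 250 bases before the RefSeq start (GRCm38.p6, chr3:95882229-95882478, minus strand) are shown because they hold 3 copies of the E-box CACGTG, in capitals, beginning 116, 58 and 44 bases before the start.
Ciart: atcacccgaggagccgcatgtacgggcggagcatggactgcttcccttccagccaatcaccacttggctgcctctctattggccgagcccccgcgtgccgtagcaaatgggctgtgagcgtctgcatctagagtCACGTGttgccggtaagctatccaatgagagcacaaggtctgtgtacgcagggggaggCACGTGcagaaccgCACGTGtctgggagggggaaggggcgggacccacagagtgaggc

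Ciart was among the members with the smallest differences. mCherry-positive libraries had 18.1, 24.2 and 16.2 CPM, against 17.5, 16.3 and 17.1 CPM in mCherry-negative libraries, an overlap with a log2 fold change of 0.21 ± 0.24 (SE; adjusted p = 0.681). EGFP-positive libraries had 18.8, 19.3 and 16.2 CPM, against 14.4, 14.0 and 15.5 CPM in EGFP-negative libraries. These did not overlap, but the difference was not called (0.29 ± 0.15, adjusted p = 0.248).

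Dbp and Tef are PAR bZIP activators, the arm of the clock that drives D-box genes, and Dbp is one of the most strongly rhythmic transcripts in mouse liver. Dbp (ENSMUSG00000059824, chr7:45705088-45710203, plus strand) rose in EGFP-positive cells. Its 250 bases before the RefSeq start (GRCm38.p6, chr7:45704997-45705246, plus strand) are shown for contrast and hold no match to the motifs searched, which says nothing of the rest of the gene.
Dbp: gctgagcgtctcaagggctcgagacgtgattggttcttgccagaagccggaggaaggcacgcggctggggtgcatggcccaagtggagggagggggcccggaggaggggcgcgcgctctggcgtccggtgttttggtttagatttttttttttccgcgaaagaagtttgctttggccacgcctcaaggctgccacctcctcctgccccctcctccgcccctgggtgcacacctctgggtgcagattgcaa

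Dbp had 28.7, 21.7 and 21.2 CPM in EGFP-positive libraries, against 15.9, 13.3 and 16.7 CPM in EGFP-negative libraries. In the mCherry sort it had 17.1, 22.3 and 20.1 CPM in positive libraries, against 12.3, 14.8 and 13.7 CPM in negative libraries. As with Per3, all 6 positive libraries lay above all 6 negative ones, a separation whose share among all genes was not counted. The margin was small, from 17.1 CPM in mCherry-positive replicate 1 to 16.7 CPM in EGFP-negative replicate 3. The log2 fold change was 0.62 ± 0.18 (SE; adjusted p = 0.0435) for EGFP and 0.55 ± 0.24 (adjusted p = 0.255) for mCherry. The EGFP call was kept without EGFP-positive replicate 1 (adjusted p = 0.0373) or 3 (0.031). It was lost without EGFP-positive replicate 2 (0.0981), without EGFP-negative replicates 1, 2 and 3 (0.116, 0.175 and 0.096) and in the fit of all 12 libraries (0.0835). Of the exonic bases of Dbp, 18.01% lie in exons of Sphk2 on the opposite strand, the largest such share among the 10 genes, and reads from those bases are uncertain in the same way as for Nr1d1.

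Tef (ENSMUSG00000022389, chr15:81802421-81826863, plus strand) had the highest CPM of the 10 in every group. EGFP-positive libraries had 133, 145 and 171 CPM, against 117, 119 and 127 CPM in EGFP-negative libraries, with no overlap and a log2 fold change of 0.29 ± 0.12 (SE; adjusted p = 0.142). Without EGFP-positive replicate 1 it was 0.38 (adjusted p = 0.0158). mCherry-positive libraries had 131, 126 and 126 CPM, against 139.8, 129.8 and 88.7 CPM in mCherry-negative libraries. The last of these, mCherry-negative replicate 3, was the lowest Tef level of all 12 libraries, and the mCherry log2 fold change was 0.10 ± 0.20 (adjusted p = 0.821), or -0.06 without that library. Gm17597, an antisense gene, shares 2.45% of the exonic bases of Tef.

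The members were also counted by whether libraries overlapped. For EGFP 6 of 10 were higher with no overlap (Nr1d1, Tef, Per3, Ciart, Dbp and Cry2), where 18.7% of all genes tested were. For mCherry it was 3 of 10 (Nr1d1, Per3 and Dbp), where 11.8% of all genes were. None of the 10 was lower without overlap, where 14.0% of all genes were in the mCherry sort and 16.9% in the EGFP sort.

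Across the promoter table, 9 of the 10 members had an entry, Per2 being the exception, with 11 windows for their 9 genes. The windows of 32851 starts in the table held the E-box CACGTG in 6.02% and 3 or more of them in 0.0609%. They held the E'-box CACGTT in 3.85%, the D-box (TTATGTAA or TTACGTAA) in 0.931% and 2 or more D-boxes in 0.0213%, on either strand. Besides the windows shown, Cry1 had an E-box 60 and an E'-box 79 bases before its start. Per1 had an E-box 166 bases before 1 of its 2 starts, and Tef had an E-box 127 and 138 bases before its 2 starts. The cAMP response element TGACGTCA, in 1.55% of all windows, was in none of the members' windows. Nr1d2 had no match to any of these motifs.

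Whether the clock genes differed alike in both sorts was tested as the mCherry effect minus the EGFP effect. For 0 of the 10 was this difference called, where 1.44% of 18063 genes were called in either direction, and 0 of 10 reached an unadjusted p under 0.05, where 15.1% of all genes did. DESeq2 and limma-voom also called 0, where they called 4.95% and 1.08% of all genes. The largest values were 0.66 ± 0.44 (SE) for Per1 (95% interval -0.29 to 1.61, adjusted p = 0.517) and -0.41 ± 0.20 for Cry2 (interval -0.84 to 0.02, adjusted p = 0.352). For Nr1d1 the difference was 0.07, with an interval of -0.43 to 0.57, and for Dbp it was -0.09 (-0.69 to 0.50). The intervals for Nr1d2 (-1.22 to 1.15), Per2 (-1.01 to 1.34) and Per1 were the widest. All 10 intervals held 0, so for none of the 10 could unequal differences in the sorts be told from equal ones at this spread.

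Between the reporter-positive groups 0 of the 10 were called, mCherry-positive over EGFP-positive, where 17.6% of all genes were called in either direction. None reached an unadjusted p under 0.05, where 32.7% of all genes did. DESeq2 and limma-voom called 0, where they called 22.8% and 16.5% of all genes. Nr1d1 had a log2 fold change of -0.35 ± 0.16 (SE; adjusted p = 0.159). It and Tef were lower in mCherry-positive than in EGFP-positive libraries without overlap, 2 of 10, where 18.2% of all genes were. Between the reporter-negative groups, mCherry-negative over EGFP-negative, 0 of the 10 were called, where 3.96% of all genes were, and 2 of 10 reached an unadjusted p under 0.05, near the share of all genes (16.8%). These were Cry1, at 0.56 ± 0.21 (adjusted p = 0.166), and Nr1d1, at -0.41 ± 0.16 (adjusted p = 0.209). DESeq2 and limma-voom called 0, where they called 7.91% and 3.90% of all genes. Cry1, Ciart and Cry2 were higher in mCherry-negative libraries without overlap (12.8% of all genes were), and Nr1d1 was lower (12.5% of all genes were). The sorts differ in virus, reporter and RNA input, which cannot be told apart in these values.

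Levels were compared between genes per exon length. In every group the 3 Period genes were the lowest of the 10, at 1.99 ± 0.56 (Per1), 3.83 ± 0.97 (Per2) and 2.94 ± 0.29 (Per3) CPM per kb in mCherry-positive libraries (SD, n = 3). In the EGFP-positive libraries they stood at 1.88 ± 0.20, 3.24 ± 1.22 and 2.72 ± 0.29 CPM per kb. Cry1, Tef, Cry2 and Nr1d1 held the 4 highest places in every group. Cry1 led in the mCherry sort, at 20.3 ± 3.6 CPM per kb in positive and 19.8 ± 4.0 in negative libraries. Tef led in the EGFP sort, at 19.1 ± 2.5 CPM per kb in positive and 15.4 ± 0.7 in negative libraries. Nr1d1 held the second place in EGFP-positive libraries, at 17.6 ± 1.2 CPM per kb, and held the fourth place in the other groups, down to 7.99 ± 0.46 in mCherry-negative libraries. Of 36 pairs of neighbours in these orders 12 differed by more than the sum of both SDs, Dbp over Per2 among them in mCherry-positive, mCherry-negative and EGFP-positive libraries, and the other 24 did not.

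**Figure D4:**
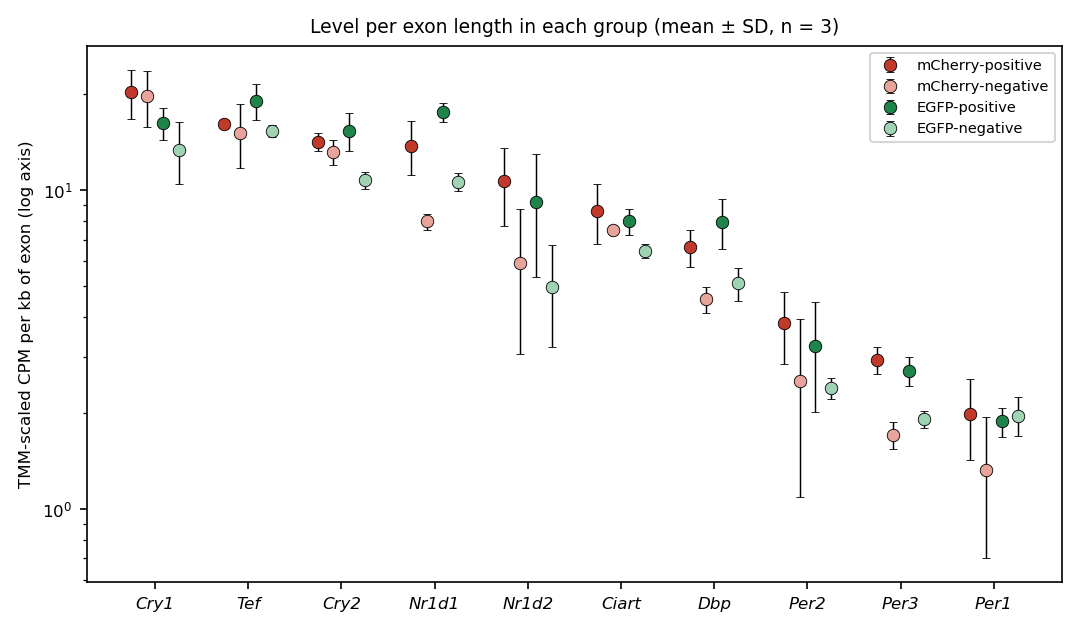
CPM per kb of exon on a log axis, mean and SD over 3 libraries per group, for the 10 clock genes in order of their mean over groups. Cry1, Tef, Cry2 and Nr1d1 hold the 4 highest places in every group, and Per2, Per3 and Per1 the 3 lowest.

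Spread within groups differed between members. The SD of Nr1d2 was 15.8 CPM around 57.7 CPM in mCherry-positive and 15.4 around 32.0 in mCherry-negative libraries, and 20.6 around 49.6 in EGFP-positive and 9.46 around 27.0 in EGFP-negative libraries. In the mCherry sort Cry2, at 5.81 around 89.8 CPM in positive and 7.52 around 83.4 in negative libraries, was among the most even. mCherry-negative replicate 3 held the lowest level of all 12 libraries for Per2, Per3, Nr1d2 and Tef, but not for Per1, where it was the highest of its group.

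Likeness of pattern was measured as the root mean square distance of log2(CPM + 0.5), centred on each gene's mean, over the 12 libraries among 11414 genes of at least 5 CPM. Per3 and Dbp were each other's nearest member, at a distance of 0.219, and Nr1d1 lay nearest to Dbp, at 0.228. The nearest gene of all was As3mt for Per3 (0.116), Rnh1 for Dbp (0.133) and Dnajb2 for Nr1d1 (0.134). Cry2 and Tef were each other's nearest member as well (0.211), with Add1 (0.0848) and Glg1 (0.0917) the nearest genes. That distance was about as large as their own variation around the mean (0.217 for Cry2 and 0.211 for Tef), so the match was not close. How far their patterns were shared was not tested. Tef ranked 312 among the genes nearest to Cry2, and Cry2 ranked 802 among those nearest to Tef. For Nr1d2 the nearest gene was Adamts1 (0.218) and the nearest member Per2 (0.444). The nearest genes of the others were Dmpk for Per1 (0.159), Arfgef2 for Per2 (0.207), Zfp958 for Cry1 (0.133) and Ntm for Ciart (0.108). In no case was another member the nearest gene, the best rank being 44, for Dbp beside Nr1d1.

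Other genes of the clock were followed in 4 lists of 25 genes. Whether a list held more calls than the share of all genes was not tested. Among the activators and ROR receptors (6 genes) 0 were called in either sort. Of all genes 16.1% were called in either direction in the EGFP sort and 1.20% in the mCherry sort. All 6 fitted values were above 0 for EGFP, as were 49.2% of all genes, and 4 of 6 for mCherry, as were 51.4%. Arntl, the gene of BMAL1 and the target of the REV-ERB receptors, had 49.4, 66.3 and 82.7 CPM in EGFP-positive libraries, against 36.9, 52.5 and 46.1 CPM in EGFP-negative libraries (log2 fold change 0.53 ± 0.20, SE, adjusted p = 0.111). Without EGFP-positive replicate 1 it was 0.71 (adjusted p = 0.00373), and it was also called with no filter on low counts (0.04). The mCherry sort gave 53.6, 34.7 and 59.4 CPM in positive libraries, against 51.2, 65.2 and 46.9 CPM in negative libraries (-0.14 ± 0.24, adjusted p = 0.801). Arntl overlapped between positive and negative libraries in both sorts.

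Rora, a ROR receptor that activates Arntl, had 64.8, 40.5 and 58.0 CPM in mCherry-positive libraries, against 30.9, 31.4 and 23.7 CPM in mCherry-negative libraries. These did not overlap, with a log2 fold change of 0.93 ± 0.24 (SE) that was not called (adjusted p = 0.089). It was called by DESeq2 (0.00561), with no filter on low counts (0.0364) and in the fit of all 12 libraries (0.0108). For EGFP it was 0.24 ± 0.14 (adjusted p = 0.298). In the mean of both effects 2 of 6 of this list rose, where 8.61% of all genes were called higher: Rora (0.59, adjusted p = 0.0117) and Rorb (0.65, 0.0256). Rora was called in all 12 fits that left out a library. Rorb was not called without mCherry-positive replicate 1, EGFP-positive replicates 2 or 3 or EGFP-negative replicates 1 or 2 (adjusted p up to 0.0759).

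Of 4 other clock-controlled bZIP and bHLH factors 1 rose in the EGFP sort, where 8.99% of all genes were called higher. Bhlhe40, the gene of DEC1, a repressor at E-boxes, had 168, 184 and 185 CPM in EGFP-positive libraries, against 123, 124 and 119 CPM in EGFP-negative libraries (log2 fold change 0.54 ± 0.10, SE, adjusted p = 0.00754). It missed the threshold without EGFP-positive replicate 2 (adjusted p = 0.0518) and in the fit of all 12 libraries (0.135). None of the 4 was called in the mCherry sort, with Bhlhe40 at 0.43 ± 0.25 (adjusted p = 0.389) and Nfil3, a repressor at D-boxes, at -0.24 ± 0.24 (adjusted p = 0.623). In the mean of both effects Bhlhe41 (0.64, adjusted p = 0.0324) and Bhlhe40 (0.49, 0.0332) rose, 2 of 4, where 8.61% of all genes were called higher. These calls depended on single libraries. Bhlhe41 was called only without mCherry-positive replicate 2 or mCherry-negative replicates 1 or 2, that is in 3 of 12 such fits, and Bhlhe40 in 6 of 12, lost without mCherry-positive replicate 1, EGFP-positive replicates 2 or 3 or any EGFP-negative replicate (adjusted p up to 0.0942 and 0.0869). Of the exonic bases of Bhlhe41, 19.0% lie in exons of Gm43909.

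No gene among the kinases, ubiquitin ligases and partners of the clock proteins (9 genes) rose in either sort. In the EGFP sort 2 of 9 fell, where 7.07% of all genes were called lower. Gsk3b, a kinase of several clock proteins, fell in EGFP-positive cells, at 165.5, 159 and 143 CPM, against 211, 217 and 212 CPM in EGFP-negative cells (log2 fold change -0.47 ± 0.10, SE, adjusted p = 0.0135). Csnk2a1, a subunit of casein kinase 2, fell as well (-0.43 ± 0.12, adjusted p = 0.0458). Both lost their call when libraries were left out: Gsk3b without EGFP-positive replicate 2 or any EGFP-negative replicate (adjusted p up to 0.0796), and Csnk2a1 without any single EGFP library but EGFP-positive replicate 1 (adjusted p up to 0.2). Both were also lost in the fit of all 12 libraries (0.113 and 0.29), and Csnk2a1 with no filter on low counts (0.101). In the mCherry sort 0 of 9 were called, with Csnk1d at -0.22 ± 0.16 (adjusted p = 0.48) and Fbxw11 at 0.03 ± 0.19 (adjusted p = 0.956). In the mean of both effects Timeless (-0.72, adjusted p = 0.00212), whose protein acts at replication forks, and Csnk1e (-0.68, adjusted p = 0.00746), the gene of casein kinase 1 epsilon, a kinase of PER proteins, fell, and both were called in all 12 fits that left out a library. That is 2 of 9, where 14.9% of all genes were called in either direction.

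Of 6 other E-box and D-box output genes, 5 passed the filter on low counts in the EGFP sort, Avp being left out there. Of these 5, 1 was called higher, where 8.99% of all genes were. Usp2, a rhythmic ubiquitin protease gene, rose in EGFP-positive cells, at 99.1, 81.0 and 78.4 CPM, against 54.8, 54.4 and 54.5 CPM in EGFP-negative cells (log2 fold change 0.64 ± 0.13, SE, adjusted p = 0.0101). It missed the threshold without EGFP-negative replicate 2 (adjusted p = 0.0569) or 3 (0.0513). In the mCherry sort none of the 6 was called. Usp2 had 76.5, 66.3 and 64.1 CPM in mCherry-positive libraries, against 54.6, 59.9 and 38.0 CPM in mCherry-negative libraries, without overlap (0.45 ± 0.21, adjusted p = 0.293). Por, of microsomal electron transfer, was at -0.07 ± 0.16 (adjusted p = 0.858). In the mean of both effects Usp2 rose (0.55, adjusted p = 0.0102) and was called in all 12 fits that left out a library. That is 1 of 6, where 8.61% of all genes were called higher.

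None of the 25 genes was called for the difference of both effects, where 1.44% of all genes were called in either direction. Between reporter-positive groups, mCherry-positive over EGFP-positive, Timeless (-0.83 ± 0.17, SE, adjusted p = 0.00471), Por (-0.68 ± 0.12, adjusted p = 0.00233) and Wee1, a mitotic kinase gene (-0.89 ± 0.24, adjusted p = 0.0203), were lower. They and Avp were the only ones of the 25 called there, where 17.6% of all genes were called in either direction. Wee1 was not called without mCherry-positive replicates 2 or 3 or EGFP-positive replicate 2 (adjusted p up to 0.0925), nor in the fit of these 6 libraries alone (0.0554). Avp, the gene of vasopressin, an output of the suprachiasmatic nucleus, was called higher (adjusted p = 0.0162), at 0.164, 7.50 and 4.31 CPM in mCherry-positive libraries, against 0.124, 0.0399 and 0.0351 CPM in EGFP-positive libraries. Avp was near the floor, at 1 to 2 reads per EGFP-positive library and 4 to 244 reads per mCherry-positive library. It was not among the genes tested in the fit of these 6 libraries alone. It was not called by limma-voom (0.187) or without EGFP-positive replicates 2 or 3 (0.0776 and 0.06), and its 2 high libraries were those with high pituitary markers. Between reporter-negative groups Csnk1e was higher in mCherry-negative than in EGFP-negative cells (0.81 ± 0.20, SE, adjusted p = 0.0378), a call kept only without mCherry-negative replicate 1 among the 6 fits that left out a library (adjusted p up to 0.178 in the others). Csnk1e was the only one of the 25 called there, where 3.96% of all genes were called in either direction.

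**Figure D5:**
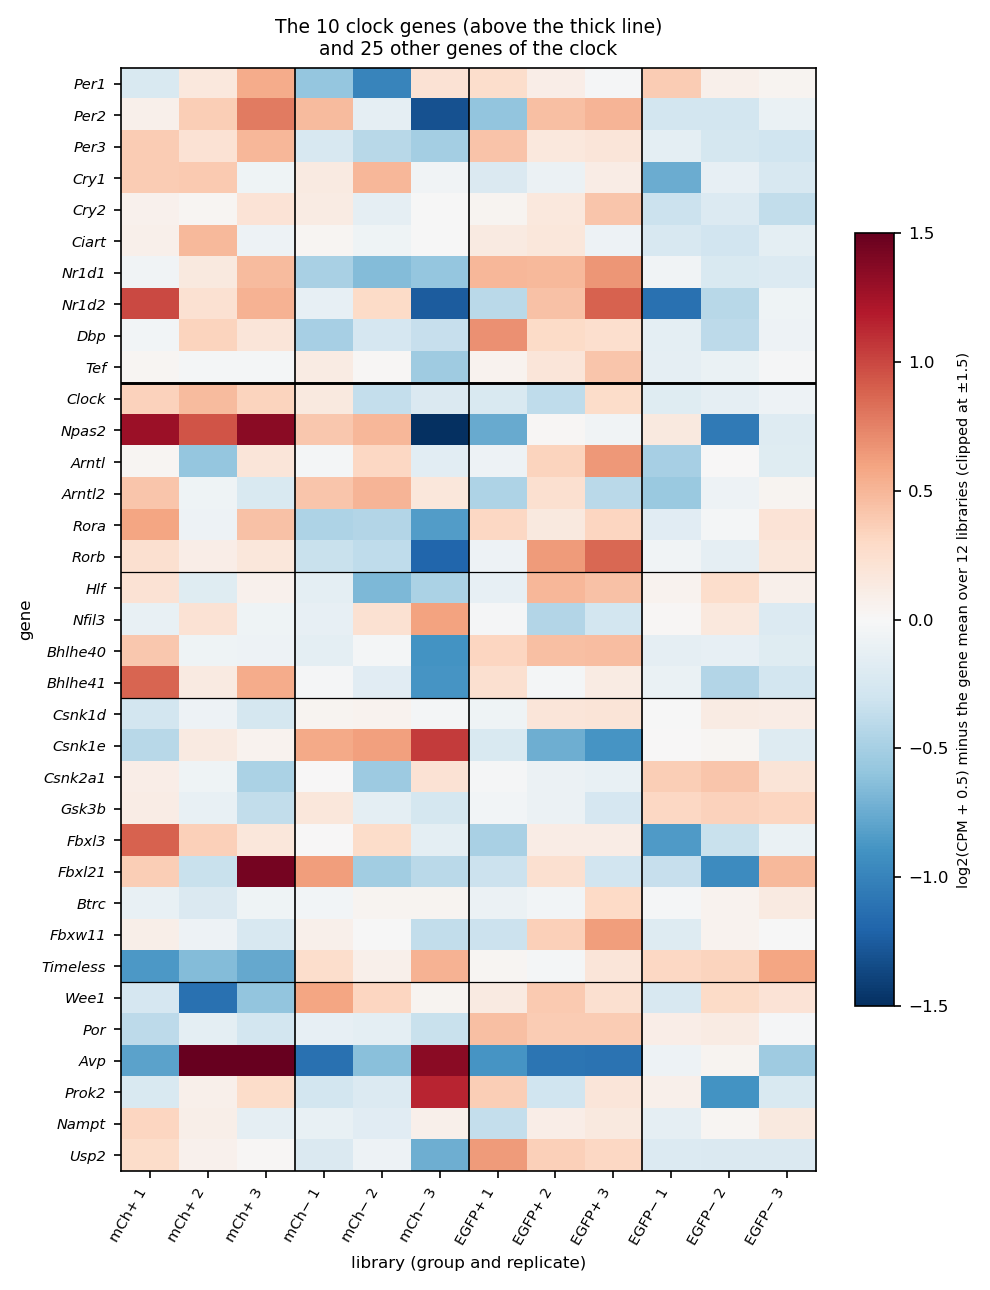
Log2(CPM + 0.5) minus the mean of each gene over the 12 libraries, colour scale clipped at ±1.5, for the 10 clock genes (above the thick line) and 25 other clock genes in 4 lists (separated by thin lines), by library. Nr1d1, Per3, Dbp and Usp2 are redder in positive than in negative libraries of both sorts, Timeless is bluest in mCherry-positive libraries, and mCherry-negative replicate 3 is low for several genes.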

How the data were processed

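Each of the 12 libraries has 1 deposited file of raw read counts by Ensembl gene, not normalized by the authors. Per the submitters' processing notes, cutadapt 1.8, STAR 2.5.2b and HTSeq 0.6.1 were used on GRCm38; settings, annotation release and strand are not given in the sources used here. Entries that name no gene held 31.4% to 38.2% of all counts and were left out of library sizes. Of 48709 identifiers, 48349 matched GENCODE M21, which gave symbols, positions and exon lengths.

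Counts were tested with edgeR 4.0.16 in R 4.3.3 (TMM, filterByExpr with a minimum count of 10 and total of 15, quasi-likelihood test, Benjamini-Hochberg adjustment over all genes, threshold 0.05). Each reporter was fitted on its own 6 libraries; the difference and mean of both effects and the comparisons between sorts came from 1 fit of all 12, which shares 1 spread. The common coefficient of variation was 0.382 for mCherry, 0.189 for EGFP and 0.313 for all 12. The SE was taken as the absolute effect over the root of the F statistic, and intervals are at 95%. Printed CPM use TMM factors over 12 libraries. The fits were tested on simulated data. The settings tried were DESeq2 size factors, no filter, DESeq2 1.42.0, limma-voom 3.58.1, a replicate block, another set of libraries and leaving out each library.

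The 10 genes and all lists were chosen with earlier results of these data known. 1 of the genes first listed is not reported here. From each of the 4 lists of other clock genes the text names up to 4 called genes of smallest adjusted p, or the 2 of highest mean CPM where none was called in a reporter comparison. The counts carry no molecular identifiers, so PCR copies of a molecule were not told apart. Promoter windows of 250 bases came from a RefSeq table (GRCm38.p6) and motifs were searched on both strands.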

Additional observations from a re-analysis of the deposited data

How the results depend on the processing

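Under other settings the count of clock genes called in the mCherry sort (0) was 2 with DESeq2 and 2 in the fit of all 12 samples, and it was 0 in every fit that left out a library (range 0 to 0). In the EGFP sort (3) it was 5 with DESeq2, 5 with the replicate block, 1 in the fit of all 12 samples and 0 to 7 when a library was left out, with 7 without EGFP-positive replicate 1 and 0 without EGFP-negative replicate 2. For the mean of both effects (3), whose alternatives were chosen after seeing the data, it was 5 with DESeq2 (RLE) size factors, 5 with DESeq2 and 3 to 5 when a library was left out. The count stayed at 0 for the difference of both effects and for both comparisons between sorts under every setting tried. Over all genes the count of calls in the mCherry sort (208) was 778 with no filter, 1476 with DESeq2, 343 with the replicate block, 1712 in the fit of all 12 samples and 0 to 212 when a library was left out. In the EGFP sort (2622) it was 801 in the fit of all 12 samples and 1137 to 5244 when a library was left out. For the difference (261) it was 675 with no filter, 894 with DESeq2 and 27 to 591 when a library was left out. It was 1607 to 3566 for the reporter-positive groups (3173) and 1573 to 2964 for the mean (2698). For the reporter-negative groups (715) it was 1429 with DESeq2 and 269 to 847 when a library was left out. The cause of these shifts was not tested. Same-numbered positive and negative libraries shared little of their deviations from group means. These correlated at 0.126, -0.0191 and 0.0246 in the mCherry sort and at 0.114, -0.0046 and 0.0287 in the EGFP sort. Not every library correlated best with its own number. With 3 libraries per group these values cannot settle whether libraries of the same number were paired, which the labels do not state. With the number as a block Per3 (adjusted p = 0.0411), Nr1d2 (0.00262) and Arntl (0.0278) were called in the EGFP sort, Nr1d2 (0.015) was called in the mean of both effects, and Csnk1e was not called between reporter-negative groups (0.082).

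Signs that turned belonged to values that were not called. Not all of these were near 0: Nr1d2 was at 0.25 between reporter-negative groups and Per2 at 0.24 between reporter-positive groups. With DESeq2 (RLE) size factors, DESeq2 and the replicate block the difference of effects for Nr1d2 was 0.013, 0.018 and 0.098, and with limma-voom the difference of Per2 between reporter-negative groups was -0.040. When a library was left out, mCherry values ranged from -0.062 to 0.22 for Cry1, -0.060 to 0.23 for Tef, -0.30 to 0.066 for Arntl and -0.086 to 0.11 for Fbxw11, and EGFP values from -0.16 to 0.039 for Per1. For the difference of effects the ranges were -0.20 to 0.62 for Per2, -0.20 to 0.080 for Dbp, -0.096 to 0.21 for Nr1d1, -0.38 to 0.32 for Nr1d2 and -0.30 to 0.011 for Ciart. Between reporter-positive groups they were -0.16 to 0.28 for Per1, -0.034 to 0.44 for Per2, -0.19 to 0.0089 for Cry2, -0.057 to 0.55 for Nr1d2 and -0.0996 to 0.21 for Ciart. Between reporter-negative groups they were -0.40 to 0.41 for Per2, -0.15 to 0.14 for Tef and -0.12 to 0.57 for Nr1d2. Depth limits Hcrt, at 3 to 14 reads per mCherry-positive and 1 to 5 reads per mCherry-negative library.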
